A study of Mus musculus with 18 samples.

Results

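The expression of 10 genes that mark oligodendrocyte precursor cells and the oligodendrocyte lineage was examined in the mouse dorsal horn of the spinal cord (DHSC). The genes were taken by name from a list, and each matched 1 of the 55573 Ensembl gene IDs in the count table. RNA-Seq had been performed on 18 samples of the lumbar DHSC ipsilateral to a hindpaw injected with 2% formalin, a chemical irritant that causes inflammatory pain, collected 2 h after the injection. The mice were adult C57BL/6J animals. They comprised 6 males, 6 F1/proestrus females, which had a short interphase between the 2 phases of nocifensive behavior, and 6 F2/metestrus females, which had a long one. The females had been chosen for both their behavior and their stage of the estrus cycle, so that these cannot be told apart. No sample from uninjected mice was analysed here, and every group carried the formalin treatment.

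Oligodendrocytes wrap axons of the central nervous system in myelin, and arise from precursor cells that persist and divide in the adult spinal cord. A precursor that commits to differentiation passes through a short premyelinating stage before it switches on the genes of myelin. *Pdgfra* and *Cspg4* mark the precursors, *Gpr17*, *Bmp4*, *Tcf7l2* and *Enpp6* mark committed precursors and newly formed oligodendrocytes, and the transcription factors *Olig1*, *Olig2* and *Sox10* are expressed along the whole lineage. *Myrf* encodes the transcription factor that activates myelin genes in differentiating and mature oligodendrocytes. In tissue samples such as these, fewer cells of a type and less RNA per cell cannot be told apart.

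Total counts per sample ranged from 73590509 to 125724156 (median 102556432). Expression is given as CPM, the counts of a gene scaled to a common library total after TMM normalization. At this depth 3 counts, taken as the floor, were worth 0.0240 to 0.0407 CPM, which accounts for counting error alone. By the numbers in its column names, the count table falls into a first series (27 to 35) and a second one (188 to 196). The column names do not say what these numbers stand for. They were taken as library numbers, and the sets are called library series here. Each series holds 3 samples of every group, numbered 1 to 3 in the first series and 4 to 6 in the second. In the DHSC all 16 listed genes of mature oligodendrocytes and myelin were detected, with a summed level of 33169 to 41853 CPM per sample. All 10 lineage genes passed the filter on low counts in each comparison. The lowest count of any of them in any sample was 135, for *Bmp4*, and the highest was 48770, for *Olig1*.

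The level of the genes relative to each other was examined per length, as CPM per kb of annotated exon on GRCm38 (GENCODE vM21). *Olig1* was the most abundant, at 171 ± 18.8 CPM per kb (SD, n = 18). It was followed by *Sox10* at 21.6 ± 3.51 and *Olig2* at 18.8 ± 2.76 CPM per kb. *Olig1* was above *Sox10* in 18 of 18 samples, and the ranges of these genes did not overlap. The *Sox10* level was above that of *Olig2* in 16 of 18 samples and *Gpr17*, at 13.5 ± 1.91 CPM per kb, was above *Myrf*, at 12.5 ± 1.44, in 15 of 18, but the ranges overlapped within each pair. *Enpp6* had 6.38 ± 0.756 and *Pdgfra* 5.58 ± 0.770 CPM per kb, again with overlapping ranges. Below them were *Cspg4* at 1.85 ± 0.304, *Bmp4* at 1.22 ± 0.284 and *Tcf7l2* at 0.661 ± 0.0616 CPM per kb. The ranges of neighbors in this order were separate only between *Olig1* and *Sox10*, *Myrf* and *Enpp6*, and *Pdgfra* and *Cspg4*. Precursor and committed-stage genes were therefore both present at levels far above the floor in every sample.

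**Figure D1:**
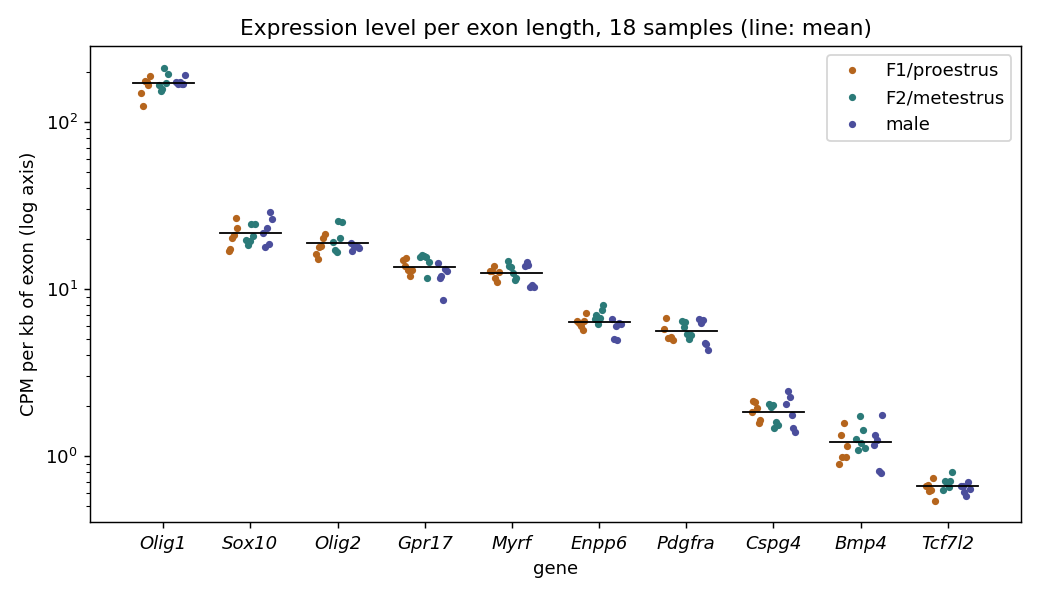
Level of the 10 genes in CPM per kb of exon (vertical log axis), ordered by the mean, with 1 point per sample colored by group and a line at the mean of the 18 samples. *Olig1* lies above every other gene in each sample at 171 CPM per kb, and *Tcf7l2* is lowest at 0.661 CPM per kb.

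*Olig1* and *Olig2* encode basic helix-loop-helix factors and are neighbors on chromosome 16 of GRCm38. *Olig2* lies from 91225457 to 91228677 and *Olig1* from 91269772 to 91271933, both on the plus strand, 41094 bases apart with 1 annotated gene between them. Their levels in CPM had a ratio of 7.79 ± 0.656 (SD, n = 18), with a range from 6.60 to 9.28. A non-coding RNA on the opposite strand, *Gm15966*, shares 157 exon bases with *Olig1* and had 49816 counts over the 18 samples. *Gpr17*, on the minus strand of chromosome 18 from 31942997 to 31949636, shares 188 exon bases with the opposite-strand gene *Lims2*, which had 73256 counts. The sources used here do not state whether the counting used the strand, so that reads over these shared bases cannot be assigned with certainty. The exon overlaps of *Pdgfra* and *Bmp4* were with genes of at most 990 counts over the 18 samples.

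The first comparison asked whether the lineage genes differed between the female groups. None of the 10 genes passed the test, and the largest difference was 0.18 on the log2 scale, for *Olig2*. In edgeR's quasi-likelihood test with Benjamini-Hochberg adjustment, 0 of the 24042 genes tested differed (0% called), with 596 at an unadjusted p under 0.05, and DESeq2 called 2 genes, neither of them a lineage gene. Of the 10 lineage genes 9 had a higher estimate in F2/metestrus. Their median log2 fold change was 0.11, against -0.00 over all genes tested, and 0 had an unadjusted p under 0.05. The edgeR fit was repeated with the library series, described below, as a covariate. *Olig2* (0.17, 95% interval from 0.02 to 0.32, unadjusted p of 0.0316) and *Enpp6* (0.14, from 0.00 to 0.27, unadjusted p of 0.0482) then came under 0.05 before adjustment, both with an adjusted p of 0.9999. In all, 842 of the 24042 genes tested had an unadjusted p under 0.05 in that fit.

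In the precursor stage, *Pdgfra*, the receptor for platelet-derived growth factor A that drives precursor division, had 49.96, 51.6 and 67.5 CPM as the lowest, median and highest value in F1/proestrus. The corresponding values in F2/metestrus were 49.98, 56.7 and 64.9 CPM. The groups overlapped almost completely, with a log2 fold change of 0.07 (95% interval from -0.12 to 0.25). *Cspg4*, which encodes the NG2 proteoglycan on the precursor surface, had 18.8, 22.4 and 25.3 CPM in F1/proestrus and 17.6, 21.3 and 24.5 CPM in F2/metestrus. It was the single lineage gene with a lower estimate in F2/metestrus, with a log2 fold change of -0.07 (95% interval from -0.29 to 0.15).

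All 4 committed-stage genes had slightly higher estimates in F2/metestrus, with log2 fold changes of 0.11 to 0.17. *Enpp6*, a choline-specific phosphodiesterase of newly forming oligodendrocytes, came closest to the threshold. Its lowest, median and highest values were 36.5, 40.7 and 45.8 CPM in F1/proestrus and 39.4, 43.8 and 51.3 CPM in F2/metestrus. The groups overlapped over most of their ranges. The log2 fold change was 0.14 ± 0.0705 (SE), with a 95% interval from -0.01 to 0.29, and edgeR's adjusted p was 0.99998. *Gpr17*, a G protein-coupled receptor that restrains the maturation of committed precursors, had a log2 fold change of 0.11 (95% interval from -0.06 to 0.29), and *Tcf7l2*, a transcription factor of the Wnt pathway, had 0.12 (from -0.07 to 0.31). *Bmp4*, a secreted ligand of the BMP pathway, was the most variable lineage gene, with a coefficient of variation of 23.3% over the 18 samples, and its interval was accordingly wide, from -0.16 to 0.50.

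Among the factors expressed along the whole lineage, *Olig2* had 38.4, 45.6 and 53.9 CPM in F1/proestrus and 42.1, 49.6 and 64.2 CPM in F2/metestrus as the lowest, median and highest values. The log2 fold change was 0.18 (95% interval from -0.07 to 0.42). *Olig1* had a log2 fold change of 0.10 (from -0.10 to 0.31), *Sox10* of 0.02 (from -0.21 to 0.25) and *Myrf* of 0.05 (from -0.10 to 0.21). For each lineage gene except *Bmp4*, the interval of the difference between the female groups lay within 0.42 of 0 on the log2 scale.

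**Figure D2:**
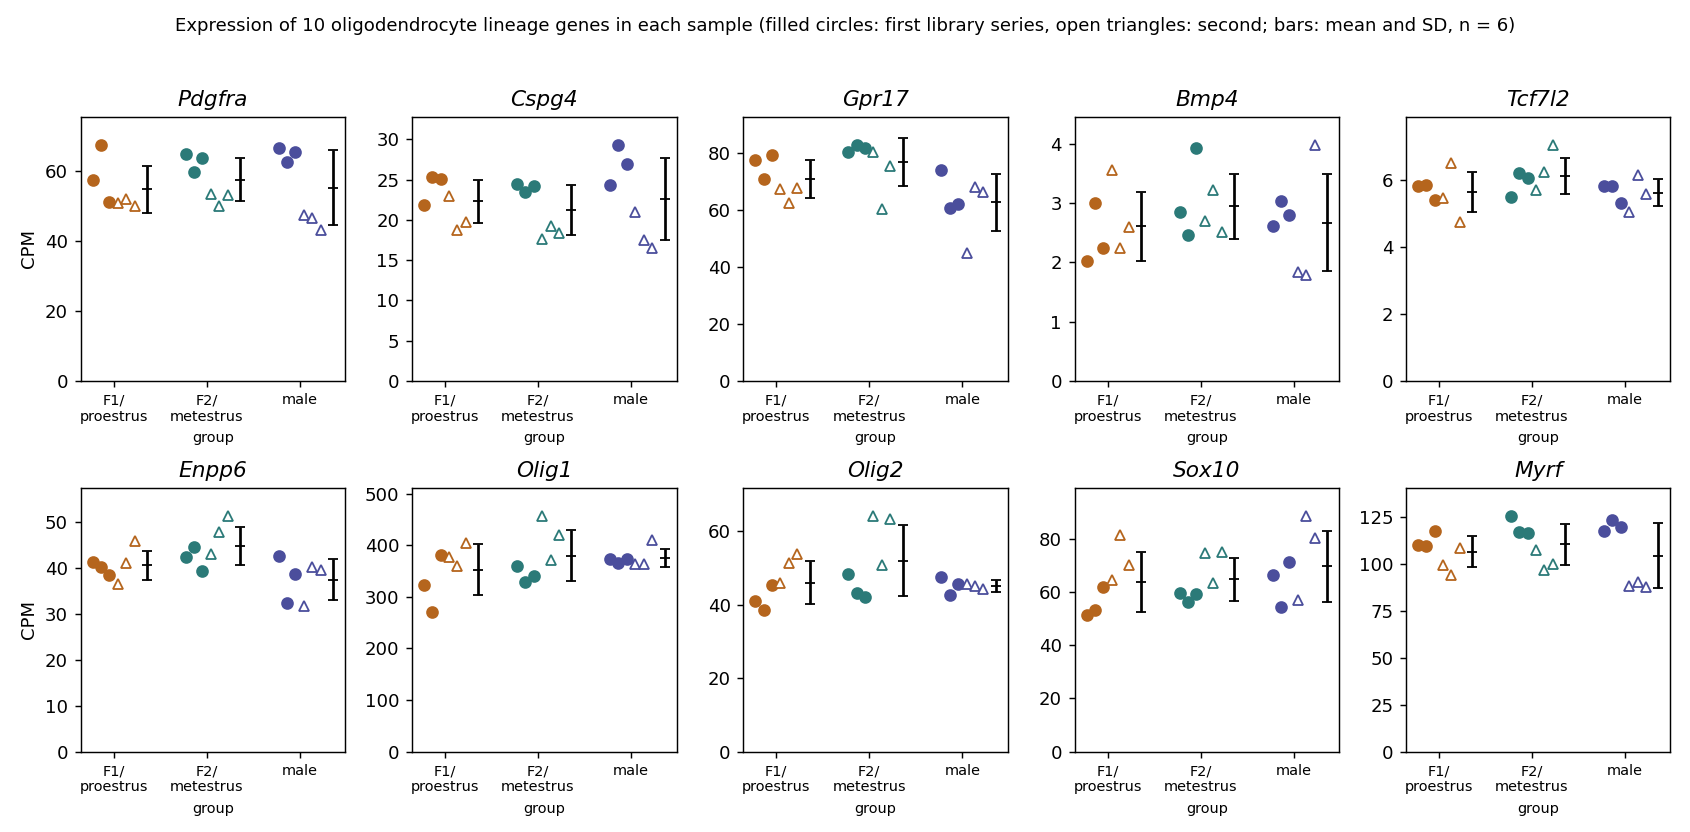
CPM of each gene (vertical axis) in every sample of F1/proestrus, F2/metestrus and males, with filled circles for the first library series, open triangles for the second, and bars for the mean and SD of 6 samples. The groups overlap for each gene, whereas *Pdgfra*, *Cspg4* and *Myrf* are lower in the second series, *Myrf* at 87.8 to 108.4 CPM against 109.6 to 125.7 CPM in the first.

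Males were next compared with all 12 females. Again none of the 10 lineage genes passed the test, and the largest estimates were those of *Gpr17* and *Enpp6*, both lower in males. In the edgeR test 49 of 24862 genes (0.197%) differed between the sexes, 37 higher and 12 lower in males, and 2416 had an unadjusted p under 0.05. DESeq2 called 166 genes, none of them a lineage gene. The median log2 fold change of the lineage genes was -0.05, against -0.00 over all genes tested, and 3 of 10 had a higher estimate in males.

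*Gpr17* had 44.8, 64.2 and 74.1 CPM in males as the lowest, median and highest value, against 62.3, 69.3 and 79.4 CPM in F1/proestrus and 60.2, 80.4 and 82.8 CPM in F2/metestrus. The lowest of all samples was male 4, the library with the fewest counted reads, and the male and female ranges overlapped. The estimate was 15.1% lower in males, with a log2 fold change of -0.24 ± 0.0877 (SE), a 95% interval from -0.42 to -0.05 and an edgeR adjusted p of 0.379. Without male 4 the log2 fold change was -0.16. Within the library series it was -0.28 in the first and -0.20 in the second. Against F1/proestrus alone it was -0.19 and against F2/metestrus alone -0.30, with males shared between these estimates.

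*Enpp6* had 31.7, 39.0 and 42.5 CPM in males, against 36.5, 40.7 and 45.8 CPM in F1/proestrus and 39.4, 43.8 and 51.3 CPM in F2/metestrus. Male 4 again had the lowest value, and the ranges of the sexes overlapped. The estimate was 12.2% lower in males, with a log2 fold change of -0.19 ± 0.0731 (SE), a 95% interval from -0.34 to -0.04 and an edgeR adjusted p of 0.400. The log2 fold change was -0.15 without male 4, -0.13 in the first series and -0.25 in the second. Both genes had an unadjusted p under 0.05, of 0.0135 for *Gpr17* and 0.0180 for *Enpp6*, and neither held after adjustment in any of the alternatives, where the adjusted p ranged from 0.144 to 0.882 for *Gpr17* and from 0.149 to 0.882 for *Enpp6*. The other committed-stage genes also had lower estimates in males, with log2 fold changes of -0.05 for *Bmp4* and -0.06 for *Tcf7l2*.

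The precursor genes did not pass the test between the sexes. *Pdgfra* had 43.1, 55.01 and 66.6 CPM in males as the lowest, median and highest value, and a log2 fold change of -0.02 (95% interval from -0.22 to 0.17). *Cspg4* had 16.5, 22.7 and 29.3 CPM, and a log2 fold change of 0.06 (from -0.18 to 0.29). In both genes the lowest male was below the lowest female, and the highest male was near or above the highest female. The library series gave estimates of opposite sign, 0.08 in the first and -0.17 in the second for *Pdgfra* (95% interval of the latter from -0.29 to -0.05, edgeR adjusted p of 0.319), and 0.14 and -0.08 for *Cspg4*.

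*Olig1* and *Olig2* varied less in the 6 males than in the 12 females, unlike most of the lineage genes. *Olig2* had 42.5, 45.3 and 47.4 CPM as the lowest, median and highest value, a coefficient of variation of 3.62%, against 16.9% in the 12 females. For *Olig1* the values were 363.0, 369.3 and 410.8 CPM, with coefficients of variation of 4.82% in males and 13.3% in females. *Tcf7l2* also varied less in males, at 7.19% against 10.1% in females. The other lineage genes varied more in males, such as *Pdgfra* at 19.3% against 11.2% and *Myrf* at 16.6% against 8.81%. The differences in spread were not tested. The log2 fold changes between the sexes were -0.12 (95% interval from -0.31 to 0.07) for *Olig2*, 0.03 (from -0.12 to 0.19) for *Olig1* and -0.06 (from -0.22 to 0.11) for *Myrf*. In the first and the second series alone they were 0.06 and -0.29 for *Olig2* (edgeR adjusted p of 0.858 and 0.347), 0.14 and -0.07 for *Olig1* (0.685 and 0.791), and 0.04 and -0.18 for *Myrf* (0.863 and 0.317).

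*Sox10*, an HMG-box factor needed for myelin gene expression, is shared by oligodendrocytes and the Schwann cells that myelinate peripheral axons. It had 54.4, 68.7 and 88.5 CPM in males, 51.2, 63.2 and 81.2 CPM in F1/proestrus and 56.2, 61.5 and 74.9 CPM in F2/metestrus. The log2 fold change between the sexes was 0.12 (95% interval from -0.10 to 0.33), with an edgeR adjusted p of 0.723. It was 0.03 without male 5, the sample with the highest *Sox10*, and 0.17 without male 2. Of the 9 Schwann cell markers listed, all 9 had a higher estimate in males, with a median log2 fold change of 0.60. In the edgeR test 7 of the 9 had an unadjusted p under 0.05, and 1 passed after adjustment. This was *Ncmap*, a protein of non-compact myelin, which averaged 50.3 ± 12.2 CPM (SD) over the 6 males, against 31.6 ± 4.34 CPM over the 12 females. DESeq2 called 3 of the 9 markers. The summed level of the 9 markers was 2121 to 4953 CPM in males, 1473 to 2894 CPM in F1/proestrus and 1552 to 2165 CPM in F2/metestrus, and their part in the *Sox10* estimate was not tested.

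**Figure D3:**
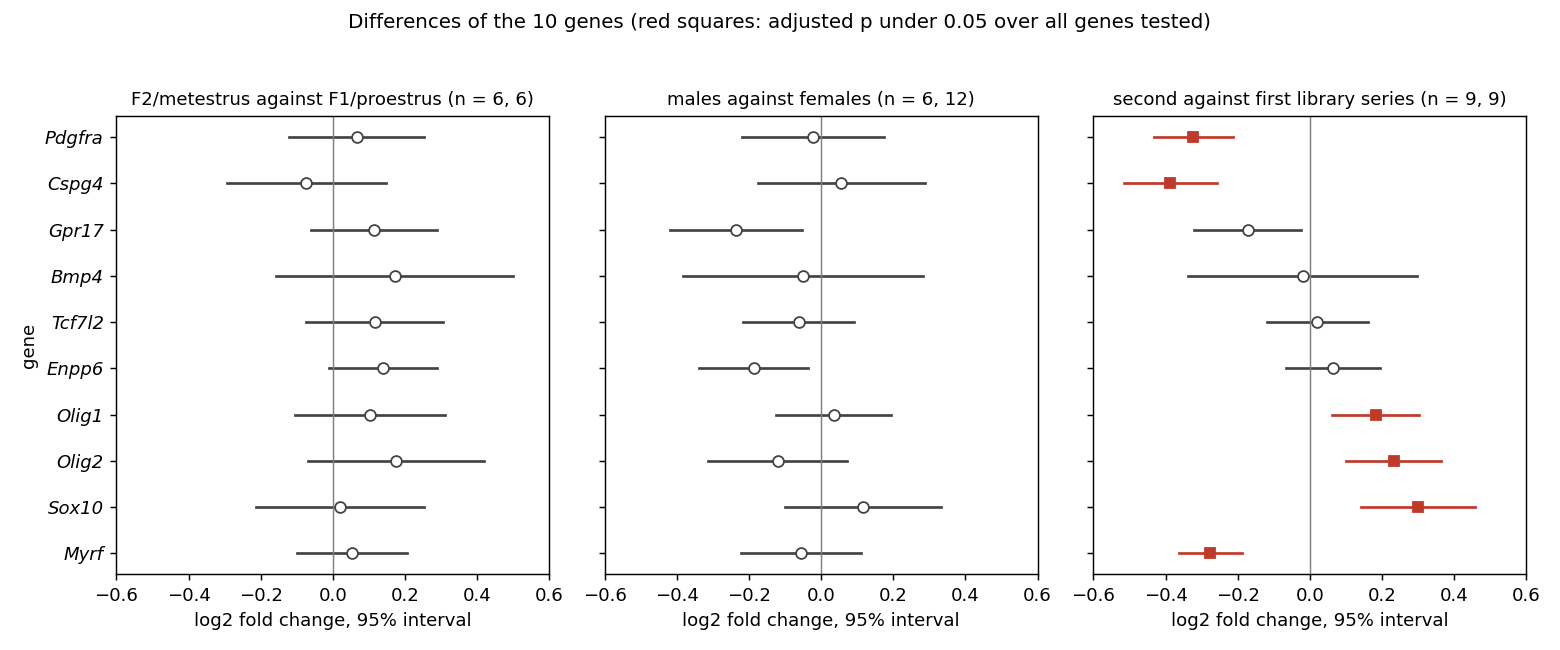
Log2 fold change (horizontal axis) of the 10 genes (vertical axis) with 95% intervals, for F2/metestrus against F1/proestrus, males against females, and the second against the first library series. Red squares have an adjusted p under 0.05 over all genes tested, and occur for 6 genes between the library series and for 0 genes between the groups.

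The other genes of the lineage were examined by list. The lists held 12 other precursor genes, 10 other committed or newly formed oligodendrocyte genes, 16 mature oligodendrocyte and myelin genes and 17 lineage transcription factors and partners. Between the female groups 0 genes of these lists passed the edgeR test, 0 had an unadjusted p under 0.05 and 0 were called by DESeq2. The median log2 fold changes were 0.02 for the precursor genes, 0.03 for the committed genes, 0.10 for the myelin genes and 0.05 for the transcription factors. The genes with the smallest p were *Gpr37l1* among the precursor genes, *Rras2* among the committed genes and *Sox8* among the transcription factors, with log2 fold changes of 0.10, 0.10 and 0.12.

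Between the sexes 0 genes of these lists passed the edgeR test either. At an unadjusted p under 0.05 there were 1 of the precursor, 2 of the committed, 2 of the myelin and 1 of the transcription factor genes, and DESeq2 called 1 gene, *Kif19a*. The median log2 fold change was -0.08 for the other precursor genes, of which 2 of 12 had a higher estimate in males, 0.01 for the committed genes, 0.00 for the myelin genes, of which 8 of 16 were higher, and 0.01 for the transcription factors. *Kif19a*, a kinesin of the committed list, averaged 13.1 ± 4.91 CPM (SD) over the 6 males, against 8.61 ± 1.93 CPM over the 12 females, and edgeR gave an adjusted p of 0.189. *Apod*, which encodes the lipid carrier apolipoprotein D, averaged 871 ± 159.4 CPM (SD) over the males, against 698 ± 69.6 CPM over the females (adjusted p of 0.178). *Cacng4*, an AMPA receptor auxiliary subunit, and *Hes5*, an effector of Notch signaling, had the smallest p of the precursor and transcription factor lists, with log2 fold changes of 0.14 and 0.30.

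The pathways in which *Pdgfra*, *Bmp4* and *Tcf7l2* act were examined in the same comparisons. The lists held 5 PDGF ligands and receptors, 19 genes of the BMP pathway and 12 genes of the Wnt pathway, and 0 of them passed the edgeR test, or were called by DESeq2, between the female groups or between the sexes. At an unadjusted p under 0.05 there were 1 Wnt gene between the female groups, and 1 PDGF, 2 BMP and 1 Wnt gene between the sexes. *Pdgfa*, the ligand of the *Pdgfra* receptor, averaged 47.1 ± 4.69 CPM (SD) over the 6 males, against 41.1 ± 4.64 CPM over the 12 females, and edgeR gave an adjusted p of 0.389. *Grem1*, a secreted BMP antagonist, had a log2 fold change of -0.42 between the sexes and *Apc*, a component of the complex that degrades beta-catenin, had -0.17. Between the female groups the genes with the smallest p were *Pdgfc*, a PDGF ligand, *Id1*, a target of BMP signaling, and *Sp5*, a target of Wnt signaling, with log2 fold changes of -0.10, -0.19 and -0.84, the last at a level of 0.0825 CPM in F2/metestrus and 0.150 CPM in F1/proestrus. Of the 8 proliferation genes 0 passed the test. *Mki67*, which encodes the Ki-67 protein of dividing cells, averaged 0.490 ± 0.268 CPM (SD) over the males, against 0.934 ± 0.311 CPM over the females (adjusted p of 0.297).

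Other cells of the dissected tissue also express some of the lineage genes. *Pdgfra* is expressed by fibroblasts of the meninges and *Cspg4* by mural cells of blood vessels. Of 8 fibroblast and meningeal markers and 9 mural cell markers, 0 passed the edgeR test between the female groups or between the sexes, with at most 3 of a list at an unadjusted p under 0.05, and DESeq2 called 0. The summed level of the fibroblast markers was 303 to 666 CPM in F1/proestrus, 352 to 628 CPM in F2/metestrus and 348 to 634 CPM in males. That of the mural markers was 251 to 289, 213 to 275 and 228 to 284 CPM. In both lists the groups overlapped, as *Pdgfra* and *Cspg4* did. Between the female groups 0 of 9 mural markers had a higher estimate in F2/metestrus, with a median log2 fold change of -0.10 and 2 at an unadjusted p under 0.05, beside the estimate of -0.07 for *Cspg4*, and their part in it was not tested. The genes with the smallest p were *Col3a1*, a fibrillar collagen, and *Myh11*, a smooth muscle myosin, between the female groups, with log2 fold changes of 0.29 and -0.45, and the growth factor *Igf2* and the potassium channel gene *Kcnj8* between the sexes, with -0.60 and 0.29. Of 8 astrocyte, 8 microglia, 8 neuron and 6 endothelial markers, 0 passed the edgeR test in either comparison and DESeq2 called 1, *Csf1r*, between the sexes. The nearest in the edgeR test was also *Csf1r*, a microglial receptor, with a log2 fold change of 0.20 between the sexes and an adjusted p of 0.0548.

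The largest differences of the lineage genes were found between the 2 library series. Their median absolute log2 fold change was 0.21, against 0.11 between the female groups and 0.06 between the sexes. Over all genes tested it was 0.15 between the series, 0.06 between the female groups and 0.09 between the sexes, so that the series was also largest there. Of the 10 genes 6 passed the test, against 26.9% of the 25180 genes tested, with 9 samples of each series and the 3 groups balanced between them. *Pdgfra*, *Cspg4* and *Myrf* were lower in the second series (12.7% of all genes tested were lower) and *Olig1*, *Olig2* and *Sox10* were higher (14.2% of all genes were higher). What differed between the series in handling is not given in the sources used here, and it cannot be told apart from the mice themselves.

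*Pdgfra* had 51.2, 63.8 and 67.5 CPM as the lowest, median and highest value in the first series and 43.1, 49.98 and 53.6 CPM in the second. Its estimate was 20.1% lower in the second series, with a log2 fold change of -0.32 ± 0.0525 (SE) and an edgeR adjusted p of 0.000138. The ranges overlapped through a single sample of the first series, F1/proestrus 3. *Cspg4* had 21.8, 24.5 and 29.3 CPM in the first series and 16.5, 18.8 and 23.0 CPM in the second, 23.5% lower, with a log2 fold change of -0.39 ± 0.0615 (SE) and an adjusted p of 0.000113. *Myrf* had 109.6, 117.7 and 125.7 CPM in the first series and 87.8, 97.0 and 108.4 CPM in the second, 17.4% lower, with a log2 fold change of -0.28 ± 0.0419 (SE) and an adjusted p of 7.21e-05. *Myrf* was the single lineage gene whose ranges in the series did not overlap, as was the case for 4.03% of all genes tested.

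*Sox10* had 51.2, 59.3 and 71.1 CPM in the first series and 56.8, 74.7 and 88.5 CPM in the second, 23.2% higher, with a log2 fold change of 0.30 ± 0.0759 (SE) and an edgeR adjusted p of 0.00566. *Olig2* had 38.4, 43.2 and 48.3 CPM in the first series and 44.3, 50.9 and 64.2 CPM in the second, 17.5% higher, with a log2 fold change of 0.23 ± 0.0635 (SE) and an adjusted p of 0.00971. *Olig1* had 270.0, 360.5 and 380.7 CPM in the first series and 360.3, 376.9 and 456.6 CPM in the second, 13.5% higher, with a log2 fold change of 0.18 ± 0.0581 (SE) and an adjusted p of 0.0244. For each of these 3 factors the ranges overlapped. The call of *Olig1* was lost when F1/proestrus 2, F2/metestrus 2 or F2/metestrus 4 was left out, with adjusted p values of 0.0741, 0.0573 and 0.0623.

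The 4 committed-stage genes among the 10 lineage genes moved less between the series, and 0 of them passed the test. This did not hold for the list of 10 other committed or newly formed oligodendrocyte genes, of which 5 were higher and 2 lower. *Gpr17* had a log2 fold change of -0.17 with an edgeR adjusted p of 0.0784, and passed the threshold without the filter on low counts (adjusted p of 0.0372), with a stricter filter (0.0496) and without male 5 (0.0240). *Enpp6*, *Tcf7l2* and *Bmp4* had log2 fold changes of 0.06, 0.02 and -0.02. The ratio of *Sox10* to *Pdgfra* in CPM was 0.959 ± 0.125 (SD, n = 9) in the first series and 1.47 ± 0.253 (SD, n = 9) in the second, whereas that of *Pdgfra* to *Myrf* was 0.530 ± 0.0490 (SD, n = 9) and 0.513 ± 0.0270 (SD, n = 9).

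The series difference was also examined within each group, where 3 samples faced 3. In males *Pdgfra*, *Cspg4* and *Myrf* were lower in the second series, with log2 fold changes of -0.51, -0.55 and -0.44, and passed the edgeR test. In F2/metestrus *Cspg4* passed at -0.39, and in F1/proestrus 0 of the 10 genes passed. The calls over all genes tested also differed between the groups. They were 1198 of 24428 in males, 781 of 24160 in F2/metestrus and 77 of 24514 in F1/proestrus. The estimates for *Pdgfra* were -0.20 in F1/proestrus and -0.27 in F2/metestrus, and those for *Myrf* -0.16 and -0.24. *Olig2* had log2 fold changes of 0.28 in F1/proestrus, 0.42 in F2/metestrus and -0.01 in males. The difference of these series effects between the sexes was tested as an interaction, which called 0 of 24862 genes (0% called), with 1235 at an unadjusted p under 0.05. Of the 10 lineage genes 3 had an unadjusted p under 0.05 and 9 an estimate below 0, but 0 passed after adjustment. The estimates, males minus females, of these 3 were -0.24 for *Myrf*, -0.27 for *Pdgfra* and -0.36 for *Olig2*, each with an adjusted p of 0.964. The same interaction between the female groups called 2 of 24042 genes (0.00832%), neither of them a lineage gene.

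The lineage genes of opposite direction differ in length. The union of annotated exons is 2162 bases for *Olig1*, 2530 for *Olig2* and 3051 for *Sox10*, and 8562 for *Myrf*, 10024 for *Pdgfra* and 11931 for *Cspg4*. Over 17760 genes with a mean of at least 1 CPM and a known exon length, the series difference moved with exon length. The median log2 fold change was 0.13 for genes of up to 2 kb, 0.08 for 2 to 4 kb, -0.02 for 4 to 8 kb and -0.16 above 8 kb. In the class of 2 to 4 kb, which holds *Olig1*, *Olig2*, *Sox10* and *Bmp4*, 25.8% of genes were higher and 4.37% lower in the second series. In the class above 8 kb, which holds *Pdgfra*, *Cspg4*, *Myrf* and *Tcf7l2*, 3.27% were higher and 49.0% lower. Across these genes, which are not independent replicates, Spearman's rho of the log2 fold change was -0.475 with exon length and 0.332 with the GC content of the longest transcript. The median of genes above 55% GC was 0.11. Of the 5 lineage genes above 55% GC, *Olig1* (61.1%), *Olig2* (58.5%) and *Sox10* (61.8%) were higher in the second series, and *Cspg4* (59.2%) and *Myrf* (57.6%) were lower. *Tcf7l2*, with 8775 exon bases, had a log2 fold change of 0.02. The part of length or GC content in the series difference of any single gene was not tested.

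**Figure D4:**
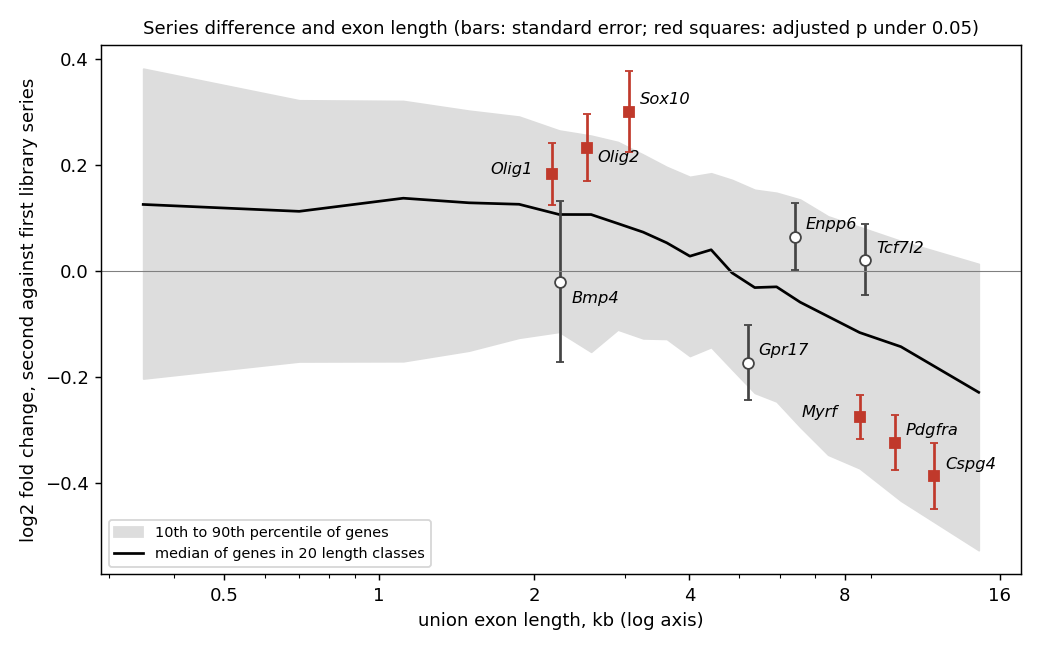
Log2 fold change between the library series (vertical axis) against union exon length in kb (horizontal log axis) for the 10 genes, with standard errors, over the median (line) and the 10th to 90th percentiles (band) of all genes with a mean of at least 1 CPM. The 3 genes that were higher (*Olig1*, *Olig2*, *Sox10*) have a short union exon length and the 3 that were lower (*Myrf*, *Pdgfra*, *Cspg4*) a long one, as the line also falls with length.

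The other lists were counted in the same way, against 14.2% of all genes tested that were higher and 12.7% that were lower in the second series. Several lists, such as the myelin genes and the Wnt pathway, were near or below the 26.9% called over all genes. Of the 12 other precursor genes 2 were higher and 5 lower in the second series, led by *Tnr*, an extracellular matrix protein of perineuronal nets, at 24.0 ± 2.18 against 37.6 ± 2.76 CPM (SD, n = 9 each), and *Ptprz1*, a receptor phosphatase, with a log2 fold change of -0.33. *Gpr37l1* was higher at 0.24. Of the 10 committed genes 5 were higher and 2 lower, the latter being *Tns3* at -0.34 and *Itpr2* at -0.35, whereas *Bcas1*, a marker of early myelinating cells, was higher at 0.19. Of the 16 myelin genes 4 were higher and 0 lower, among them *Apod* at 0.29, *Opalin* at 0.32 and the connexin gene *Gjb1* at 0.26. Of the 17 transcription factors 8 were higher, among them *Sox9* at 0.33 and *Hes5* at 0.37, and 2 lower, among them the chromatin remodeler *Chd8* at -0.44. The pathway lists likewise held genes of both directions. *Pdgfa* was higher at 0.26 and the receptor gene *Pdgfrb* lower at -0.28, and the BMP mediators *Smad9* and *Smad5* were lower at -0.51 and -0.33 while the ligand gene *Bmp2* was higher at 0.26. In the Wnt list *Apc* was lower at -0.26 and *Nkd1*, a Wnt antagonist, higher at 0.15. Of the 8 proliferation and 8 fibroblast markers 0 passed, with *Mki67* at -0.62 and *Fmod* at -0.30 having the smallest p. Among the mural markers *Abcc9* was lower at -0.58, as was *Pdgfrb*. Of the 8 microglia markers 5 were higher and 1 lower, with *C1qa* and *Trem2* at 0.41 and 0.29. Of the 8 astrocyte markers 2 were lower, *Fgfr3* at -0.18 and *Slc1a2* at -0.15. In the neuron list *Slc6a5* was lower at -0.43 and *Rbfox3* higher at 0.19, and in the endothelial list *Flt1* was lower at -0.27 and *Cldn5* higher at 0.34.

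Because the series moved the lineage genes in both directions, their correlation with each other was examined within each series, over 9 samples and 45 pairs of genes, on log2 CPM. Each series includes males and females. Differences between the groups were not removed, and the permutations ran across the groups. After Benjamini-Hochberg adjustment 0 of 45 pairs passed in either series, with 8 and 7 pairs at an unadjusted p under 0.05 in exact permutation tests. The median Pearson's r was 0.10 in the first series and 0.33 in the second, with 26 and 31 of 45 pairs above 0. Pairs of the same stage had a median r of 0.29 and 0.32, and pairs of different stages 0.06 and 0.33.

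*Olig1* and *Olig2* had the highest r in the first series, 0.833 with a two-sided exact permutation p of 0.00402 (Spearman's rho of 0.717 with p of 0.0369, adjusted p of 0.133). In the second series r was 0.709 with an exact permutation p of 0.0308 (rho of 0.450 with p of 0.230, adjusted p of 0.251). Without the 2 samples farthest from the median of *Olig1*, r was 0.550 in the first series and 0.0595 in the second. Leaving out these samples also narrows the range of *Olig1*, which by itself can lower r. Such values were not particular to this pair. *Olig2* and *Myrf* had an r of 0.748 in the first series and 0.751 in the second (adjusted exact permutation p of 0.159 and 0.242). The highest r in the second series was 0.788, of *Pdgfra* and *Olig2* (adjusted exact permutation p of 0.242), which had -0.030 in the first. *Gpr17* and *Enpp6*, the genes with the largest estimates between the sexes, had an r of 0.733 in the first series (exact permutation p of 0.0184, rho of 0.550 with p of 0.133, adjusted p of 0.159) and 0.656 in the second (exact permutation p of 0.0585, rho of 0.417 with p of 0.270, adjusted p of 0.329). Without the 2 samples farthest from the median of *Gpr17*, which narrows its range, these were 0.175 and 0.234. In the first series the samples left out were male 2 and male 3, at 60.6 and 62.2 CPM of *Gpr17*. Both genes had lower estimates in males, and the part of the sexes in their r was not tested. *Cspg4* and *Gpr17* had the lowest r in the first series, at -0.821 (exact permutation p of 0.00593, rho of -0.750 with p of 0.0255, adjusted p of 0.133, r of -0.899 without 2 samples) and -0.424 in the second (exact permutation p of 0.251, rho of -0.433 with p of 0.250, adjusted p of 0.614, r of -0.832 without 2 samples).

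**Figure D5:**
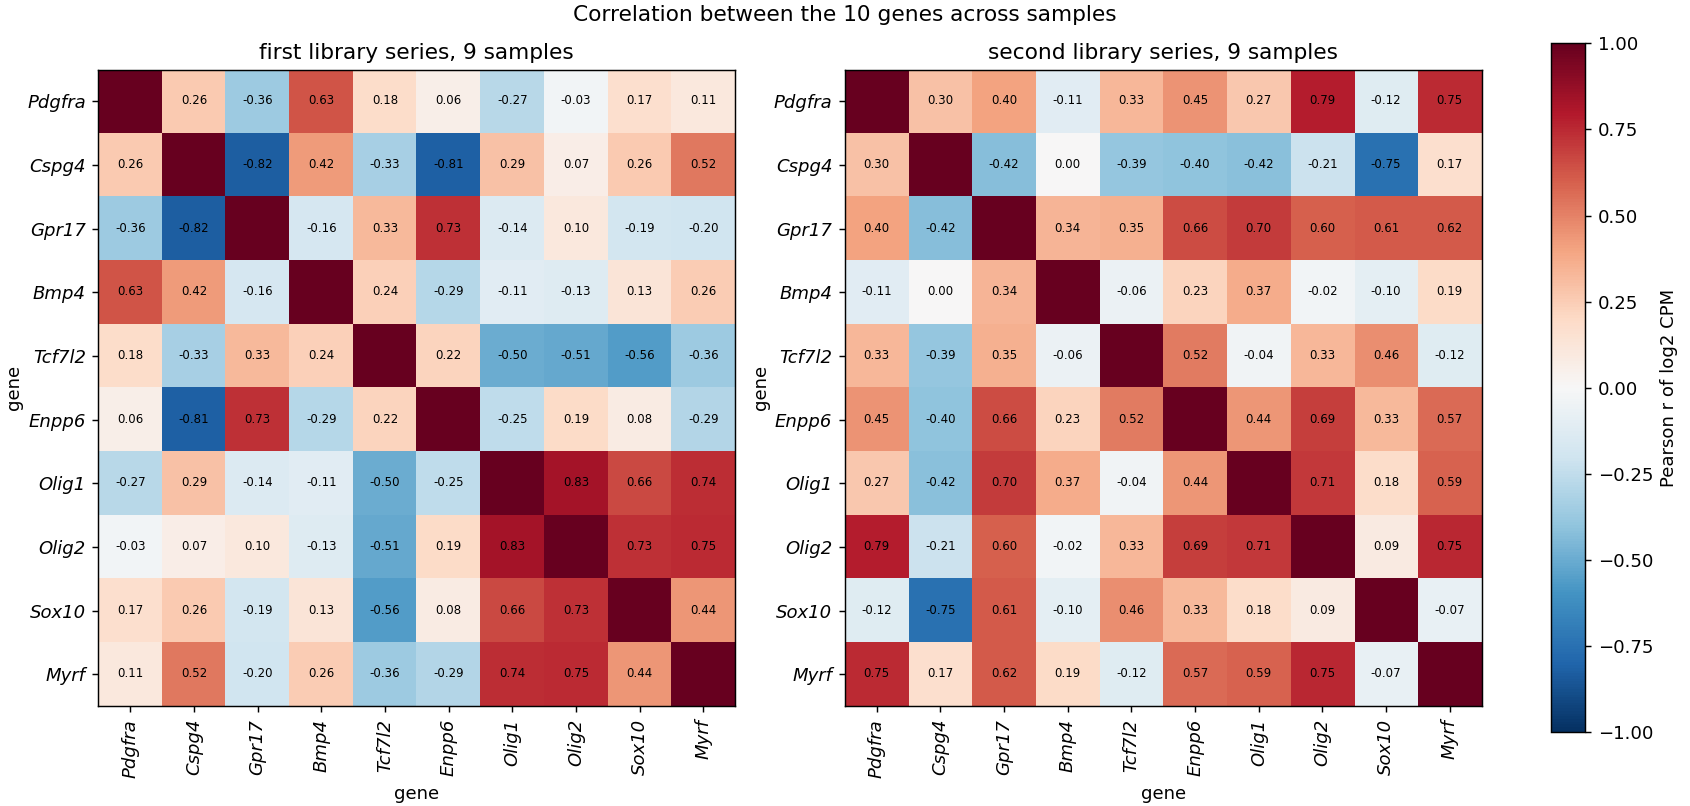
Pearson's r of log2 CPM between the 10 genes (both axes) over the 9 samples of the first and of the second library series, colored from -1 to 1. *Olig1* and *Olig2* have a positive r in both series (0.833 and 0.709), as do other pairs such as *Olig2* and *Myrf* (0.748 and 0.751), and 0 of 45 pairs per series passed after adjustment.

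For each lineage gene the gene with the most similar pattern was searched among 17763 genes with a mean of at least 1 CPM. The search ran over the 18 samples after the mean of each series was removed. The other lineage genes were left out of the ranking, so that a pair of lineage genes could not be returned. The highest Pearson's r was 0.933, of *Enpp6* with *Pigh*, and the lowest 0.742, of *Tcf7l2* with *Cep76*. *Olig1* was most similar to *Gm15966* (r of 0.907), the non-coding RNA that overlaps it on the opposite strand. *Sox10* was most similar to *Cdc42ep1* (0.891), which lies 304010 bases away on chromosome 15. The remaining pairs were *Pdgfra* with *Dyrk1a* (0.879), *Cspg4* with *Zswim8* (0.906), *Gpr17* with *S1pr1* (0.858), *Bmp4* with *Thsd4* (0.871), *Olig2* with *Fam168a* (0.864) and *Myrf* with *Gm15663* (0.901). These values are the highest of many correlations between genes that share the library and depth of each sample, and are given as a description.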

How the data were processed

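RNA-Seq libraries from the ipsilateral DHSC of 18 mice were analysed. The counts that the authors deposited are whole numbers of reads per Ensembl gene, not normalized. The methods state that uniquely mapped reads (mm10, Subread) were counted over exons with featureCounts. The submitters' processing notes name Subread 2.0.3, and the methods an older version. The methods name the TruSeq kit for the libraries, the labels SMART-Seq amplification with Nextera XT. Another table that the authors deposited holds DESeq2 results for 1 comparison (fold changes and p-values), from which only the gene symbols were used.

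Gene positions came from GENCODE vM21 (GRCm38), which lists 55394 of the 55573 IDs. The test was edgeR's quasi-likelihood test (edgeR 4.0.16, R 4.3.3) on TMM-normalized counts, after filterByExpr with a minimum count of 10 and a total of at least 15, and p-values were adjusted by the Benjamini-Hochberg method (threshold of 5%). The female groups were compared in a fit of 12 samples. Sexes, and library series with the group as a covariate, were compared in fits of 18 samples. Log2 CPM for correlations used a prior count of 2, and SciPy 1.17.1 gave the exact permutation tests. Alternatives were DESeq2 1.42.0, limma voom 3.58.1, other size factors and filters, robust dispersions, the series as a covariate, each series or group alone, the replicate number as a block, 3 groups in 1 fit, and leaving out each sample.

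Nothing in the labels ties a sample to more than 1 mouse or states that samples were pooled, and p-values measure the spread between these samples. The genes named are the 10 lineage genes and, for each of them, the gene outside the 10 with the highest correlation. For each list and comparison, genes past the threshold are named (at most 3, by smallest p), or otherwise the gene with the smallest p. *Lims2* and the antisense genes were named for their overlap. Some genes that this rule selects are not reported here. The genes and lists were chosen with earlier results of these data known, including the library series.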

Additional observations from a re-analysis of the deposited data

Results flagged for a closer look

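Each of the 10 genes was examined in each of the 3 groups of 6 samples for a sample that stood apart by Dixon's criterion, and 2 of 30 tests were positive. Chance gives about 1 such sample in 20 groups. *Gpr17* was at 60.2 CPM in F2/metestrus 5, and the next sample of the group was at 75.3 CPM. *Olig1* was at 410.8 CPM in male 6, and the next male was at 373.4 CPM, in a group whose other 5 samples lay within 363.0 to 373.4 CPM. Neither value changes a call between the groups, since 0 lineage genes passed the test with or without any single sample.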

How the results depend on the processing

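Between the female groups and between the sexes, 0 of the 10 genes passed under any alternative or with any single sample left out. Between the library series 6 to 7 passed with other tools and filters, and 0 within F1/proestrus, 1 within F2/metestrus and 3 within males, where 3 samples faced 3. Some log2 fold changes changed sign, among them that of *Olig2*, a called gene, between the series. Between the female groups *Sox10* had -0.021 in the second series alone, and -0.036 to 0.10 when single samples were left out. Between the sexes the first series alone gave 0.080 for *Pdgfra*, 0.018 for *Bmp4*, 0.056 for *Olig2* and 0.037 for *Myrf*, and the second alone -0.17, -0.13, -0.29 and -0.18 for these genes, -0.081 for *Cspg4* and -0.065 for *Olig1*. Against F1/proestrus alone *Pdgfra* had 0.0013 and *Bmp4* 0.029, and against F2/metestrus alone *Olig1* had -0.027. Leaving out single samples gave -0.095 to 0.028 for *Pdgfra*, -0.041 to 0.12 for *Cspg4*, -0.21 to 0.033 for *Bmp4* and -0.0051 to 0.068 for *Olig1*. Between the series, F1/proestrus alone gave 0.21 for *Bmp4* and -0.026 for *Tcf7l2*, and males alone -0.017 for *Tcf7l2*, -0.028 for *Enpp6* and -0.0083 for *Olig2*, with -0.15 to 0.055 for *Bmp4* and -0.020 to 0.062 for *Tcf7l2* when single samples were left out. The cause of these changes was not tested. *Bmp4* had the lowest counts of the 10 genes, at 135 to 472 per sample, and the part of depth in its spread was not tested.

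Over all genes the count between the female groups was 0 with edgeR and 2 with DESeq2. Between the sexes it was 49 with edgeR and 166 with DESeq2, 134 with the series as a covariate, 31 with a stricter filter, 16 and 13 within the first and the second series, 13 and 22 against F1/proestrus and F2/metestrus alone, and 25, 30 and 77 without male 5, male 4 and F1/proestrus 5. Between the series it was 6774 of 25180, against 77 of 24514, 781 of 24160 and 1198 of 24428 within F1/proestrus, F2/metestrus and males.

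The replicate numbers of the labels were tried as a block. Same-numbered samples of different groups had correlations of -0.10 to 0.23, 9 of 18 pairs were above 0.1, and 7 of 18 samples correlated best with their own number, and the numbers were not taken to pair the mice. With the block 0 of the 10 genes passed in either comparison, and 148 genes in all passed between the sexes. Between the female groups 3 of the 10 (*Enpp6*, *Olig2* and *Gpr17*) had an unadjusted p under 0.05, beside 895 of all 24042 genes tested.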
